A study of Cerrena unicolor with 12 samples.

Results

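The fructose cultures of the white rot fungus *Cerrena unicolor* were compared between cultivation day 6 (Cd-6) and cultivation day 10 (Cd-10). They were chosen by the sample labels and make up 6 of the 12 RNA-seq libraries of the series, with 3 replicate cultures from each day. All of them hold the wild-type strain 87613, grown as hyphae in shaken potato dextrose medium with fructose in place of the usual sugar, at 200 rpm and 30°C. The 2 groups thus share the strain, the sugar and the medium and differ in the length of cultivation, and every culture comes from this single strain. The labelled cell type could not be checked against marker genes, because the table pairs no gene ID with a product. All 11281 genes of the table enter the description, and each difference is given as Cd-6 against Cd-10.

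White rot fungi break down lignin and other plant polymers with secreted oxidases, among them laccase, a copper enzyme that oxidizes phenols. In a shaken flask the sugar is drawn down as the mycelium grows, and central carbon metabolism feeds both energy and the building of cell material. The citrate cycle oxidizes acetyl units, the glyoxylate route saves their carbon for new sugar, and pyruvate stands between glycolysis and both. Glutathione is a tripeptide that keeps the cell interior reduced and is attached to reactive compounds by glutathione S-transferases. The study asked how transcription differs between a period of high laccase activity, which it placed at Cd-6, and one of low activity at Cd-10. It measured this activity in potato dextrose medium and reports none for fructose cultures.

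The values are read counts per gene divided by 1 size factor per library, with no correction for gene length, so that levels of different genes are not compared with each other. They are called normalized values below. The libraries held between 10279983 and 12049179 assigned reads, and 10912 to 11030 genes had a value above 0 in a single culture. On the main axis of variation, which held 69.6% of the variance of 10060 genes, the Cd-6 cultures lay between 41.2 and 49.7 and the Cd-10 cultures between -49.4 and -40.5. On the next axis, with 11.7% of the variance, Cd-10 replicate 3 stood apart at 34.3, while replicates 1 and 2 lay at -12.2 and -23.9. Across genes, which are no independent replicates, Pearson's r came to 0.977 to 0.984 within Cd-6, 0.971 to 0.979 within Cd-10 and 0.909 to 0.928 between the days. The median SD of a gene's log2 values was 0.19 at Cd-6 and 0.25 at Cd-10. Cd-10 replicates 1 and 2 correlated at 0.979, and replicate 3 with them at 0.974 and 0.971. Whether the wider spread at Cd-10 goes beyond replicate 3 was not tested. No library was a copy of another, since the chi-square per gene between replicates was 25.6 or more.

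The transcription profile differed between the days in a large part of the genome, in both directions to about the same extent. Genes with values of 10 or more in 3 or more cultures were tested. Of these 10060 genes, 2999 (29.8%) passed a Benjamini-Hochberg adjusted p below 0.05 in limma, 1527 higher (15.2%) and 1472 lower (14.6%) at Cd-6. The study's own limits were a change of 1 or more on the log2 scale in either direction with an unadjusted P below 0.001, and 599 genes (5.95%) stood past them as higher and 495 (4.92%) as lower at Cd-6, together 10.9% of the genes tested. The cultures of the days did not overlap in 46.7% of the genes tested, 23.1% with Cd-6 above and 23.6% with Cd-6 below. The median log2 fold change was 1.05 among the genes called higher and -0.90 among those called lower, and 73 genes in each direction changed by at least 3 on the log2 scale. In bulk cultures fewer hyphae of a kind and less RNA per hypha cannot be told apart. With libraries scaled to the same sum, the median over all genes shifted to -0.12, and the calls at Cd-6 became 1173 higher and 1977 lower, so that the share of higher genes was 37.2% against 50.9%. Without Cd-6 replicate 1 the count of changed genes was 1789, which is 888 higher and 901 lower. Without Cd-10 replicate 3, which stood apart, it was 2704, with 1372 higher and 1332 lower.

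**Figure D1:**
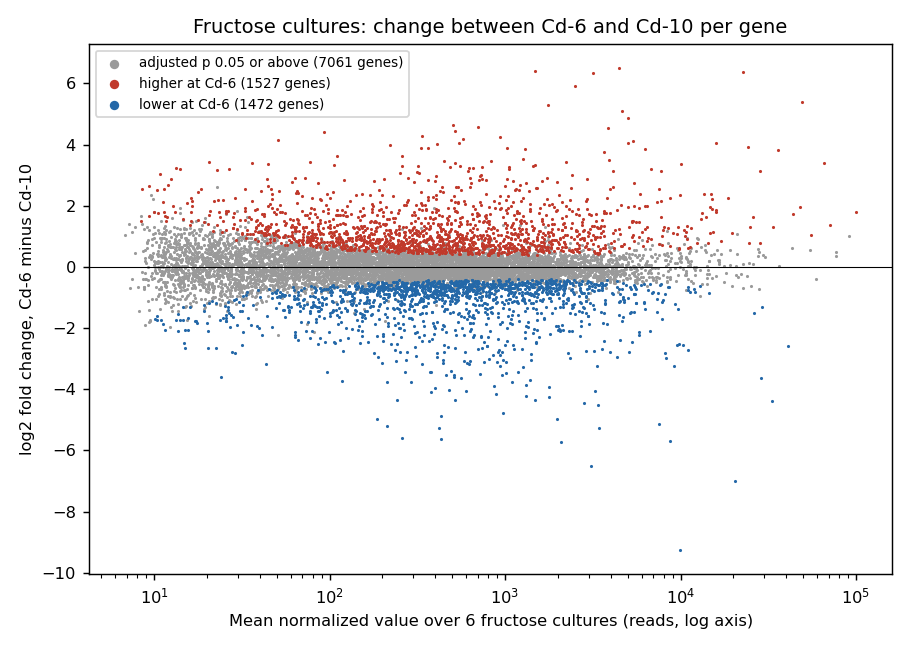
Each point is 1 of 10060 genes, with the mean normalized value over the 6 fructose cultures on a log axis and the log2 fold change from limma, Cd-6 minus Cd-10, on the other axis. Red points are the 1527 genes called higher at Cd-6, blue points the 1472 called lower, and the lowest point, A07185, lies at -9.26.

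A larger share of the reads fell on the leading genes in the Cd-6 cultures. The 20 genes with the most reads, picked in each library on its own, took 13.6%, 12.4% and 13.1% of the summed values in the Cd-6 cultures. In the Cd-10 cultures they took 8.41%, 9.98% and 8.64%. The groups did not overlap, and the difference of 4.04 percentage points had p = 0.1 in a two-sided exact permutation test, the smallest p that 3 cultures against 3 allow. Of the 20 genes with the highest mean value at each day, 10 were common to both. Among the 20 of Cd-6, 13 were called higher at Cd-6, while the 20 of Cd-10 held 3 that were higher and 6 that were lower at Cd-6. Of all genes tested, 15.2% were called higher and 14.6% lower. Each set was picked by its reads at that day, which favours genes that are higher then, so that these counts are a description. The share of genes called grew with the number of reads, from 10.2% of the 1067 genes with a mean of at most 30 to 39.5% of the 147 genes with a mean above 10000. Of those 147 genes, 43 were called higher at Cd-6 and 15 lower. Hardly any gene was switched between no read and reads. In 9 genes the 3 Cd-10 cultures had no read and all Cd-6 cultures had some, with at most 16 reads over the 3 cultures, and in 6 genes it was the reverse, with at most 29 reads.

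Products or pathways were known for 93 genes, most of which the study sorted into 10 pathways because they differed between these days. For its cultures the paper names potato dextrose medium and does not mention fructose. The lists thus hold genes picked for a change with age and not whole pathways, and neither their counts nor their directions below are independent evidence about a pathway. Which sugar the libraries behind the lists had is not stated in the paper. Past the study's limits of fold and P stood 21 of the listed genes as higher and 32 as lower in the fructose cultures. Of all genes tested, 5.95% and 4.92% did. Not every listed gene thus met those limits in the fructose libraries and the fit used here. Of the 92 listed genes that could be tested, 69 changed, 23 higher and 46 lower at Cd-6, which is 75.0% against 29.8% of all genes tested and describes genes picked in this way. Without Cd-10 replicate 3, 65 of the listed genes changed, 24 higher and 41 lower. Most listed genes under the citrate cycle, pyruvate, glyoxylate and carbon metabolism and under starch and sucrose metabolism were lower at Cd-6, and most genes under glutathione metabolism and amino acid biosynthesis were higher. The genes under the cell cycle and meiosis were the exception, with few calls in either direction. The lists overlap, since 48 of the 92 genes with a pathway stand in more than 1, and the remaining gene, A00119, has a product only. The gene that was listed but not tested, A09123, had values between 2.90 and 13.9.

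**Figure D2:**
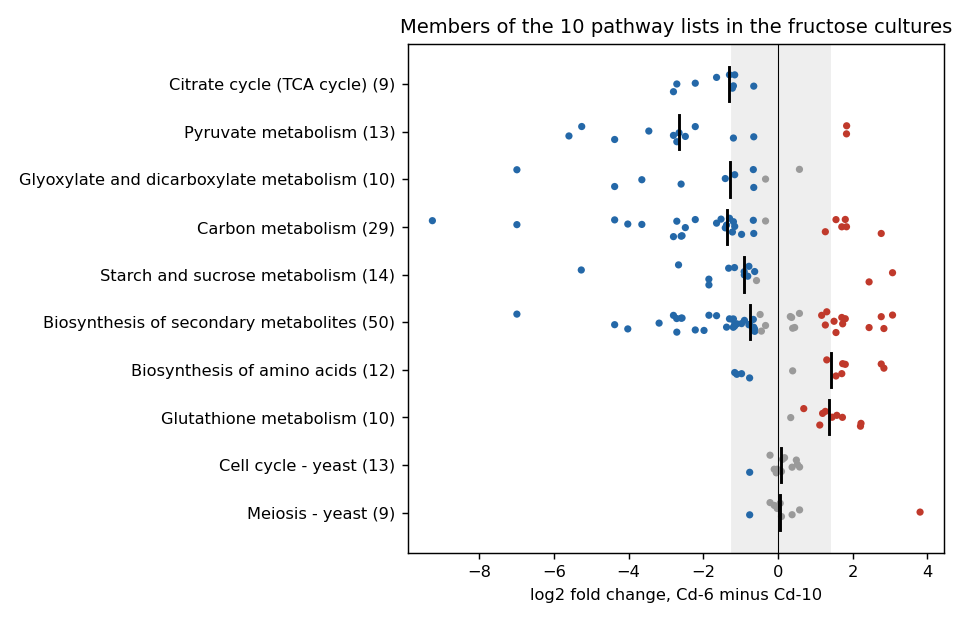
Each point is a tested member of a pathway list (list size in parentheses) at its log2 fold change from limma, Cd-6 minus Cd-10, red where called higher at Cd-6, blue where called lower and grey where not called. The black bars are list medians, from -2.65 for pyruvate metabolism to 1.43 for biosynthesis of amino acids, and the shaded band runs from the 5th to the 95th percentile of all genes tested (-1.23 to 1.40).

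All 11 genes of glutathione metabolism with a known product, which the study chose as changed between the days, had higher values in every Cd-6 culture than in any Cd-10 culture, and 9 of them passed the test. In all genes tested, 23.1% were separated in this direction and 15.2% were called higher. The median log2 fold change of the 11 genes was 1.27, against -0.0030 over all genes. Together they took 0.345% to 0.446% of all values in the Cd-6 cultures and 0.0927% to 0.145% in those of Cd-10.

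The genes listed around glutathione synthesis changed moderately and evenly in transcript level, and enzyme amounts were not measured here. In cultures for which it mentions no fructose, the paper reports less synthetase enzyme and less reduced glutathione at Cd-6. A09094, the glutathione synthetase that adds glycine in the last step of synthesis, stood at 389, 534 and 430 in Cd-6 replicates 1 to 3 and at 187, 229 and 202 in Cd-10 replicates 1 to 3. Its lowest Cd-6 culture was thus well above its highest Cd-10 culture, and the log2 fold change was 1.12 (SE 0.17, adjusted p = 0.0012 in limma, where SE is the standard error). A03741, which the study lists as γ-glutamylcysteine, had 2850, 2877 and 3126 against 1264, 1256 and 1343, with little spread within either day and a log2 fold change of 1.20 (SE 0.13, adjusted p = 1.6e-04). The gene listed as glucose-6-phosphate dehydrogenase, the first enzyme of the pentose phosphate pathway and a source of the NADPH that keeps glutathione reduced, stood at 3149, 3931 and 2952 against 1256, 1454 and 1429. Its log2 fold change was 1.27 (adjusted p = 3.4e-04), close to those of A09094 and A03741.

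The genes listed as trypanothione reductase differed from each other. Trypanothione reductase is known from trypanosomes, where this flavin enzyme keeps a conjugate of glutathione reduced. A07600 had 5644, 4067 and 4624 at Cd-6 against 993, 1394 and 750 at Cd-10, which is a log2 fold change of 2.22 (SE 0.23, adjusted p = 1.1e-04), the largest of the 11 genes. A00119 stood at 609, 685 and 502 against 442, 500 and 476. Its groups touch, since Cd-6 replicate 3 and Cd-10 replicate 2 differ by less than the spread within either day, and the log2 fold change of 0.33 (SE 0.16, adjusted p = 0.14) did not pass in limma or under any of the 17 alternatives. The difference between the changes of the 2 genes was not tested.

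The transcripts of the 5 glutathione S-transferases were all higher at Cd-6, by log2 fold changes from 0.69 to 2.21. A04379, with the most reads, stood at 21753, 18356 and 33743 at Cd-6 and at 5331, 8187 and 3116 at Cd-10, which is a log2 fold change of 2.21 (SE 0.35, adjusted p = 0.0015). In this gene replicate 3 was the highest culture at Cd-6 and the lowest at Cd-10. A04373 had 3962, 4017 and 3613 against 1447, 730 and 1498, where Cd-10 replicate 2 lay well below the other cultures of its day. A00358 stood at 300, 419 and 264 against 84.4, 125 and 117, and A09881 at 1903, 1967 and 1908 against 802, 826 and 528. The log2 fold changes of A04373, A00358 and A09881 were 1.73, 1.58 and 1.45 (adjusted p = 9.3e-04, 8.1e-04 and 3.7e-04). The smallest change was that of A01960, at 343, 449 and 344 against 202, 249 and 250, a log2 fold change of 0.69 (SE 0.17, adjusted p = 0.015), which rose to an adjusted p of 0.059 without Cd-6 replicate 2 (0.0050 to 0.059 over all alternatives). The aminopeptidase A04614, an enzyme that removes amino acids from the ends of peptides, had 485, 545 and 485 against 440, 353 and 405, and its log2 fold change of 0.34 (adjusted p = 0.11) did not pass.

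**Figure D3:**
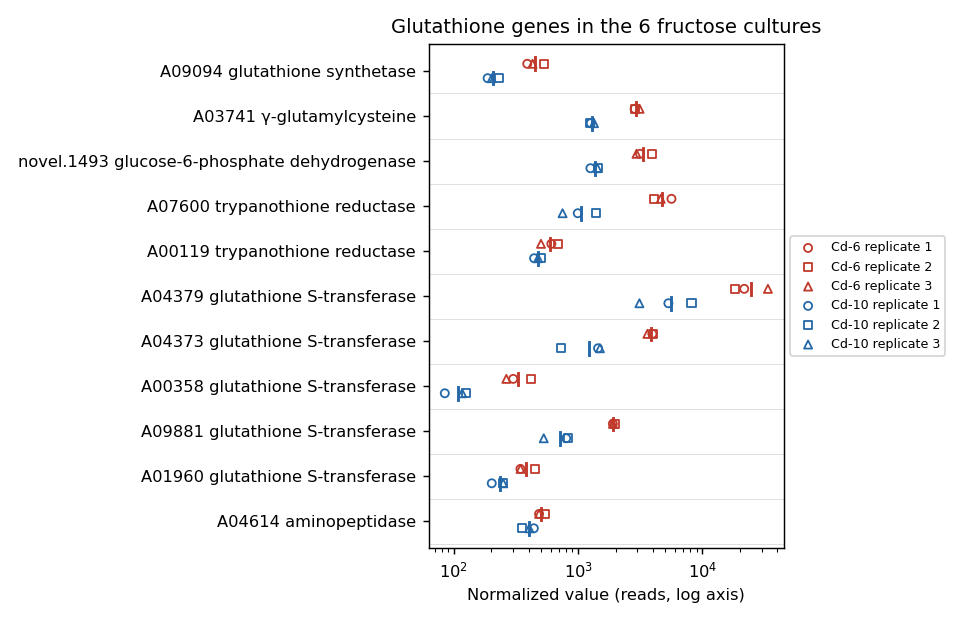
Normalized values (log axis) of the 11 glutathione genes in the 6 fructose cultures, red for Cd-6 and blue for Cd-10, with circles, squares and triangles for replicates 1, 2 and 3 and a bar at each mean. In every gene the red points lie to the right of the blue ones, by a log2 fold change of 2.22 in A07600 and of 0.33 in A00119.

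Every gene listed under the citrate cycle was lower at Cd-6. All 9 passed the test, against 14.6% of all genes in this direction. In all 9 the cultures of the days did not overlap, against 23.6% of all genes tested with Cd-6 below. The median log2 fold change was -1.30, with a range from -2.80 to -0.65, and the 9 genes took 0.18% to 0.194% of all values in the Cd-6 cultures and 0.417% to 0.621% in those of Cd-10. The change was largest in A01247, at 1623, 2174 and 2083 against 9002, 20852 and 13244, a log2 fold change of -2.80 (SE 0.28, adjusted p = 9.1e-05). A00342 followed at 73.5, 52.2 and 53.2 against 292, 585 and 350, with -2.71 (adjusted p = 8.8e-05), and A07715 at 166, 385 and 172 against 712, 1571 and 996, with -2.22 (adjusted p = 0.0016). These 3 genes also stand under pyruvate metabolism. In each of them Cd-10 replicate 2 had the highest value, and in all 9 genes Cd-10 replicate 1 had the lowest value of its day, a place this culture took in 29.0% of all genes tested. A07181, the member with the most reads, changed least, at 6946, 6128 and 6918 against 7979, 11699 and 12169. Its log2 fold change was -0.65 (adjusted p = 0.039). It was -0.68 to -0.54, with an adjusted p of 0.076 to 0.11, when Cd-6 replicate 1, 2 or 3 or Cd-10 replicate 2 or 3 was left out (0.0051 to 0.11 over all alternatives).

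Under pyruvate metabolism the 13 genes picked by the study all passed the test, 11 lower and 2 higher at Cd-6, against 14.6% and 15.2% of all genes tested, with a median log2 fold change of -2.65. A03460 was close to silent in the younger cultures, at 9.45, 11.7 and 5.81, and stood at 536, 728 and 262 in the older ones, a log2 fold change of -5.60 (SE 0.39, adjusted p = 9.5e-06). A00421 had a like pattern, with 16.8, 18.1 and 25.2 against 827, 1099 and 546 and a log2 fold change of -5.26 (adjusted p = 2.6e-06). Their neighbours by ID moved in the same direction, A03461 by -2.65 and A00422 by -3.46. Cd-10 replicate 2 was the highest Cd-10 culture in 11 of the 13 genes, against 31.3% of all genes tested. The 2 genes that were higher at Cd-6 were A03210, at 943, 769 and 764 against 222, 253 and 214, and A04617, at 785, 913 and 712 against 249, 304 and 147, both with a log2 fold change of 1.84.

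The strongest changes of the listed genes were found under carbon metabolism, where 22 of 29 listed genes were lower and 6 were higher at Cd-6, against 14.6% and 15.2% of all genes tested (median log2 fold change -1.38). A07185 had the largest change of all genes tested in the fructose cultures. It stood at 26.2, 34.1 and 32.9 at Cd-6 and at 21977, 23155 and 14635 at Cd-10, so that the mean at Cd-10 was 641 times that at Cd-6, which is a log2 fold change of -9.26 (SE 0.20, adjusted p = 1.1e-08). In reads, this was 91 over the 3 Cd-6 libraries against 61412 over the 3 Cd-10 libraries. A00533, listed also under glyoxylate and dicarboxylate metabolism, had 191, 532.8 and 289 against 28626, 40952 and 52649, a ratio of means of 121 and a log2 fold change of -6.99 (SE 0.35, adjusted p = 2.5e-06). A02610 stood at 47.2, 57.5 and 56.1 against 795, 1142 and 762, with -4.02 (adjusted p = 2.3e-06). In none of these 3 genes did a Cd-6 culture come near the Cd-10 range. The gene that was not called, A05257, differed by -0.33 on the log2 scale (adjusted p = 0.13).

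Under glyoxylate and dicarboxylate metabolism 8 of 10 listed genes were lower at Cd-6, against 14.6% of all genes tested, and the other genes, A05257 and A00447, were not called. As a share of the summed values, the list went from 0.268% to 0.302% in the Cd-6 cultures to 1.68% to 2.79% in the Cd-10 cultures. The shift came mainly from 4 genes. A03683, which stands in 4 lists, had 2573, 3622 and 2560 against 39070, 90674 and 60273, a log2 fold change of -4.38 (SE 0.31, adjusted p = 1.0e-05). A00276 had 4097, 2092 and 7253 against 31596, 48201 and 80311, with wide groups at both days and a log2 fold change of -3.65 (SE 0.45, adjusted p = 3.6e-04). A02126 was even at Cd-6, at 11069, 11794 and 11346, and rose to 52245, 75132 and 83266 at Cd-10, which is a log2 fold change of -2.60 (SE 0.25, adjusted p = 7.7e-05). The fourth was A00533. The number of genes called lower in this list was 5 without Cd-6 replicate 1, and A01756, whose Cd-6 values ran from 33.0 to 126, had an adjusted p of 0.025 (0.0035 to 0.070 over all alternatives).

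**Figure D4:**
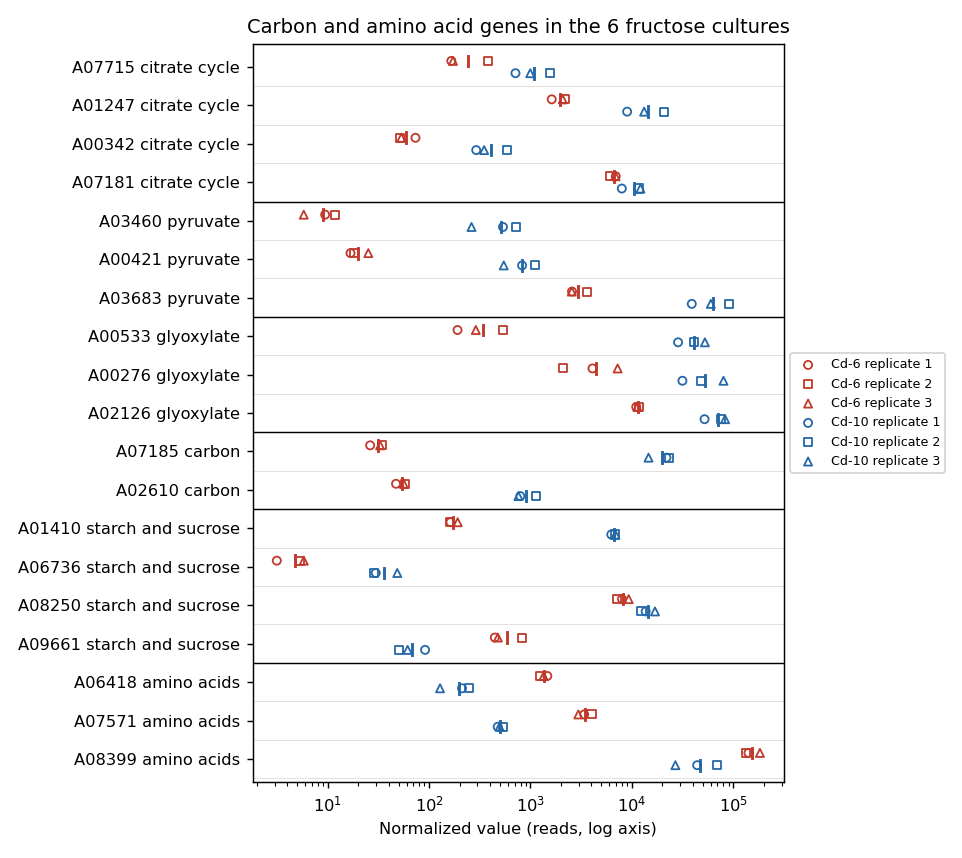
Normalized values (log axis) of 19 genes under carbon, starch and amino acid lists in the 6 fructose cultures, with colours, symbols and bars as in the plot of glutathione genes and black lines between lists. In the citrate cycle, pyruvate, glyoxylate and carbon genes the red Cd-6 points lie to the left, by a log2 fold change of up to -9.26 in A07185, and in A09661 and the 3 amino acid genes they lie to the right, by up to 3.07.

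Genes under starch and sucrose metabolism, for which no product was given, were mostly lower at Cd-6. Of 14 listed genes 11 were lower and 2 were higher, against 14.6% and 15.2% of all genes tested, with a median log2 fold change of -0.90. A01410 stood out from the others, at 163, 162 and 192 against 6276, 6808 and 6901. The cultures of each day hardly differed, and the log2 fold change was -5.27 (SE 0.14, adjusted p = 3.4e-08). A06736 was weakly transcribed, with 3.15, 5.33 and 5.81 against 29.8, 28.8 and 48.6 and a log2 fold change of -2.66 (adjusted p = 0.0015). A08250, the member with the most reads, had 8010, 7200 and 9320 against 13713, 12466 and 16944, a log2 fold change of -0.81 (adjusted p = 0.014) that did not pass without Cd-6 replicate 1 or 2 (0.070 and 0.054, with 1.7e-04 to 0.070 over all alternatives). The 2 genes in the opposite direction were A09661, at 445, 824 and 477 against 91.4, 50.6 and 61.5, and A06836, at 458, 780 and 427 against 144, 56.6 and 114. Their log2 fold changes were 3.07 and 2.44 (adjusted p = 5.6e-05 and 7.3e-04), and both had their highest value in Cd-6 replicate 2 and their lowest in Cd-10 replicate 2. Without Cd-6 replicate 1, 7 genes of the list were called lower.

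Genes under biosynthesis of amino acids were mostly higher at Cd-6, with 7 of 12 listed genes higher and 4 lower, against 15.2% and 14.6% of all genes tested (median log2 fold change 1.43). A06418 had 1469, 1256 and 1349 against 212, 247 and 128, a log2 fold change of 2.84 (SE 0.23, adjusted p = 2.3e-05), and A07571 had 3389, 4008 and 2970 against 476, 540 and 496, with 2.77 (SE 0.15, adjusted p = 2.6e-06). A08399 alone took 1.21% to 1.58% of all values in the Cd-6 cultures and 0.247% to 0.653% in those of Cd-10. Its cultures stood at 141539, 134043 and 183751 against 44184, 68948 and 26933, a log2 fold change of 1.80 (SE 0.40, adjusted p = 0.0082). As in A04379, replicate 3 was highest at Cd-6 and lowest at Cd-10. The 4 genes that were lower at Cd-6 (A01721, A02865, A04880 and A02664) changed less, by log2 fold changes from -1.16 to -0.76. A01721 also belongs to the citrate cycle list.

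The list of biosynthesis of secondary metabolites, a wide category that holds all 12 amino acid genes and all 9 citrate cycle genes, had 29 genes that were lower and 12 that were higher at Cd-6 among 49 tested, against 14.6% and 15.2% of all genes (median log2 fold change -0.76). Its largest changes were those of A00533, A03683 and A02610 given above. Among the genes found in this list only, A08519 changed by -3.19 on the log2 scale (adjusted p = 2.0e-05) and A00376 by -2.71 (adjusted p = 3.9e-05), with 2636, 3186 and 2662 against 26431, 14522 and 16464. A09892, one of the genes with the most reads in the table, did not separate the days. It stood at 94910, 53063 and 112511 against 60658, 91463 and 47761, and its log2 fold change of 0.37 (SE 0.40, adjusted p = 0.52) was smaller than its error.

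Most genes under the yeast cell cycle did not separate the days, and in 11 of 13 the Cd-6 and Cd-10 cultures overlapped. Of all genes tested, 46.7% did not overlap. Only 1 gene (7.69%, against 29.8% of all genes tested) was called, as lower at Cd-6. At an unadjusted p below 0.05 in limma there were 2 higher and 1 lower, against 4148 of the 10060 genes tested in either direction. Both edgeR and DESeq2 called 1 lower and 0 higher. In its own comparison the study lists 11 of the 13 genes as up-regulated at Cd-6 and 2, A01728 and A02602, as down-regulated. A02602 was the called gene, at 353, 347 and 370 against 590, 630 and 592, a log2 fold change of -0.76 (SE 0.13, adjusted p = 0.0023). The others had log2 fold changes between -0.21 and 0.58. The next in size were A06177, at 89.2, 113 and 84.2 against 69.5, 54.6 and 66.1, and A02093, at 136, 189 and 99.7 against 81.5, 102 and 104, with log2 fold changes of 0.58 (SE 0.22, adjusted p = 0.075) and 0.52 (SE 0.25, adjusted p = 0.15). A01728, the member with the most reads, had 1670, 1599 and 1423 against 1698, 1189 and 1458, with 0.12 (SE 0.16, adjusted p = 0.60).

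Within the days, the cell cycle genes kept a common order of the cultures. Cd-6 replicate 2 had the highest Cd-6 value in 10 of the 13 genes and Cd-6 replicate 3 the lowest in 10. Over all genes tested, these cultures took these places in 36.9% and 35.8%. At Cd-10, replicate 3 was highest in 9 genes and replicate 1 lowest in 11, against 37.8% and 29.0% of all genes. In A06480, for example, the Cd-6 cultures stood at 112, 199 and 116 and the Cd-10 cultures at 86.4, 145 and 217, so that the days overlapped widely and the log2 fold change was -0.02 (SE 0.34). Part of this order was seen in the other lists too. Among all listed genes, Cd-6 replicate 2 was highest in 55.4% and Cd-6 replicate 3 lowest in 42.4%. Cd-10 replicate 3 was highest in 39.1% of them and Cd-10 replicate 1 lowest in 45.7%. The cell cycle genes share their libraries and 8 of them also stand under meiosis, so that the order is given as a description.

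The meiosis list held 9 genes, of which 1 was higher and 1 was lower at Cd-6, together 22.2% and so near the 29.8% of all genes tested. The lower one was A02602, shared with the cell cycle list. The higher one was A07141, the only member outside the cell cycle list, at 73750, 50470 and 77478 against 4339, 6117 and 3966. It had a log2 fold change of 3.81 (SE 0.26, adjusted p = 9.1e-06), and it carried the list from 0.0647% to 0.0821% of the summed values at Cd-10 to 0.489% to 0.683% at Cd-6. No product was given for it, so that its place in a meiosis list is the only annotation.

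**Figure D5:**
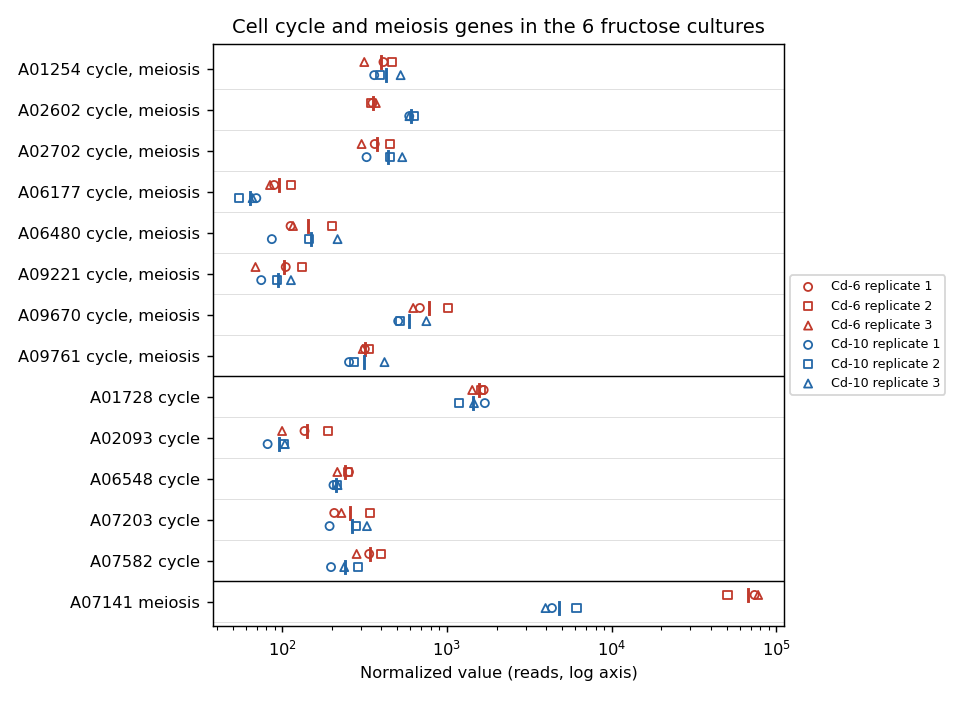
Normalized values (log axis) of the 13 cell cycle genes and of A07141 in the 6 fructose cultures, with colours, symbols and bars as in the plot of glutathione genes. Red Cd-6 and blue Cd-10 points are mixed in most cell cycle genes, with a log2 fold change of -0.76 in A02602, and lie far apart in A07141 at 3.81.

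Among genes with no product and no pathway, the largest rises at Cd-6 were those of A02917 and A02330. A02917 stood at 8039, 9514 and 8932 against 118, 108 and 69.7, a log2 fold change of 6.50 (SE 0.20, adjusted p = 9.0e-08). A02330 had 2635, 4934 and 1260 against 36.8, 50.6 and 12.8, with 6.40 (SE 0.54, adjusted p = 3.2e-05), and it had the widest spread among the Cd-6 cultures of the 2 genes. The largest falls were those of A06327, at 27.3, 27.7 and 199 against 6344, 9993 and 1986, with -6.52 (SE 0.76, adjusted p = 2.5e-04), and of A09891, at 37.8, 65.0 and 111 against 2156, 2519 and 7622, with -5.71 (SE 0.48, adjusted p = 3.4e-05). The 4 genes were picked by the size of this change, so that their separation is a description.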

How the data were processed

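RNA from 6 fructose cultures was sequenced on an Illumina platform. The labels name HISAT2 and Cufflinks, and the paper's methods name featureCounts for the gene counts. The deposited signal holds such counts after division, by the authors, by a size factor of each library (median of ratios, fructose libraries only). Every value of the 6 libraries was a whole number of reads (tolerance 1e-04 of a read), so that reads were recovered. Of the gene IDs, 0 matched the reference gene table. Genes with 10 or more in 3 or more libraries were tested as log2(value + 1) with limma 3.58.1 (R 4.3.3; lmFit, eBayes with trend), with Benjamini-Hochberg adjustment over all of them. Median-ratio scaling over the 6 libraries left the values as deposited. The replicates are cultures of 1 strain, per the labels, and whether they shared a starter was not given in the sources used here.

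The members and lists were chosen with earlier results of these data known. Named were the 11 genes with a product, in each pathway list the 3 members with the largest change and the one with the highest mean, and 2 genes without product or pathway per direction (adjusted p below 0.05, mean of 100 or more, groups not overlapping). Other list members were named after their values were seen. Alternatives were other scalings, filters and pseudocounts, array weights, a replicate block, recovered reads in edgeR 4.0.16 and DESeq2 1.42.0, and leaving out each culture. The fit was tested on simulated data. Python 3.11.15, pandas 2.3.3 and matplotlib 3.10.9 made summaries and figures. The glucose cultures and the metabolites were not analysed here.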

Additional observations from a re-analysis of the deposited data

How the results depend on the processing

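The count of changed genes was 1789 to 2704 when 1 culture was left out, with 888 to 1384 higher and 901 to 1332 lower at Cd-6, and the lowest of each came without Cd-6 replicate 1. Past the fold and P limits 626 genes stood with P read as adjusted, 330 higher and 296 lower. The share of the 100 genes with the most reads in each library differed by 5.46 percentage points between the days, against 4.04 for the 20. The recovered reads gave 3023 changed genes in edgeR and 3195 in DESeq2. Same-numbered cultures of the days correlated at 0.075, -0.11 and -0.094 in their deviations from the mean of their day, and differently numbered ones at -0.042 to 0.15. The deviations within a day are bound to each other, so that these values cannot tell whether the numbers pair the cultures. A replicate block gave 2480 changed genes. Of the listed genes, 61 to 72 changed over all alternatives. Of 39 named genes 35 kept their direction and side of the threshold throughout. The exceptions were A01728, which was not called and ranged from -0.011 (without Cd-10 replicate 2) to 0.25 on the log2 scale with 1 culture left out, A08250 and A01960 as given in the report, and A07181, which also lost its call with the replicate block (adjusted p = 0.073). Among the lists, the genes called lower fell to 5 for glyoxylate and to 7 for starch and sucrose without Cd-6 replicate 1, and 1 gene was called higher under the cell cycle (array weights, or without Cd-10 replicate 2) and under glyoxylate (array weights). The part of depth in the lower share of calls among genes with few reads was not tested.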

Other observations

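Of the gene models, 9217 have an ID beginning with A and 2064 an ID of another kind. The latter were called in 18.9% of 1385 genes tested, against 31.6% of 8675 genes with an A. They also had fewer reads, with a median normalized value of 45.4 against 409. Up to a value of 30 the shares called were 8.77% of 513 and 11.6% of 554 genes, and between 30 and 100 they were 15.8% of 455 and 22.8% of 1191. Between 100 and 300 they were 31.2% of 202 and 32.1% of 1889, between 300 and 1000 they were 41.1% of 141 and 34.7% of 2676, and between 1000 and 3000 the calls were 17 of 55 and 593 of 1646. Whether the number of reads accounts for the gap was not tested. As a description of the calls, the genes that were higher at Cd-6 held 30.1% to 32.3% of all values in the younger cultures and 10.7% to 13.3% in the older ones, and the genes that were lower held 8.70% to 9.49% and 22.9% to 24.7%.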
